A study of Danio rerio with 2 samples.

Results

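Primitive erythroid cells with a high content of embryonic globin mRNA were examined among the GFP-positive cells of etv2ci32Gt; UAS:GFP zebrafish embryos. The cells were chosen by their globin counts. A cell was a member if the summed counts of hbae1.3, hbae3, hbbe1.1, hbbe1.2, hbbe1.3 and hbbe3 made up at least 1% of its UMIs, where a UMI (unique molecular identifier) stands for 1 captured mRNA. In all, 343 of 2081 kept cells were members, 210 of 1608 in the heterozygous and 133 of 473 in the homozygous library. Kept cells had at least 2500 UMIs, more than 200 and up to 3500 detected genes, and no more than 5% mitochondrial counts.

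Whole embryos at the 20-somite stage, either heterozygous or homozygous for etv2ci32Gt and carrying UAS:GFP, were dissociated, and GFP-positive cells were collected by FACS. In etv2ci32Gt a gal4 gene with a polyadenylation signal sits in a coding exon of etv2, which interrupts the gene and drives GFP where the etv2 locus is active. Both groups carry at least 1 copy of this gene trap, so that neither is wild type. Embryos of a genotype were pooled into 1 library, and the genotype therefore cannot be told apart from the library. Nothing in this design allows a test between genotypes, and all intervals are 95% intervals for counting error only.

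Primitive erythroid cells are the first red blood cells of the embryo and arise from lateral plate mesoderm, next to the progenitors of the endothelium. Under the control of gata1a they make alpha-type and beta-type embryonic globin chains, assemble heme in the mitochondria, take up iron and build the membrane skeleton of the red cell. In the zebrafish embryo these cells enter the circulation while still immature and complete their maturation there.

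The kept cells held 16913592 heterozygous and 6277215 homozygous UMIs. Members were deeper than the other kept cells, at median depths of 15236.5 (heterozygous) and 18901 UMIs (homozygous) against 9403 and 11324.5 UMIs, and with medians of 2496.5 and 2621 detected genes. The libraries shared 0 kept barcodes. A doublet caller (Scrublet) marked 1 heterozygous and 0 homozygous members, and doublets among the members cannot be taken as removed. Barcodes with 1 to 100 UMIs, which hold free RNA, carried the 6 globins at 1.14% (heterozygous) and 2.18% (homozygous) of their UMIs. The median share of the 6 globins in the other kept cells was 0.0363% and 0.0468%.

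The targeted gene was lower in the homozygous library. Counts of etv2 were 349 CPM (counts per 1000000 UMIs) in heterozygous and 23.9 CPM in homozygous other cells. In members etv2 was low in both libraries, at 20.8 CPM from 63 counts and 1.24 CPM from 3 counts, and a single heterozygous cell held 41.3% of the 63 counts. Where along the gene the 3' tags fall relative to the inserted gal4 was not examined.

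Members made up 13.1% (11.5 to 14.8%, Clopper-Pearson) of heterozygous and 28.1% (24.1 to 32.4%) of homozygous kept cells. The homozygous share was higher by 15.1 percentage points (Newcombe interval 10.7 to 19.6). This share also depends on how many other cells the sort holds. When other cells in which 21 endothelial and macrophage marker genes summed to 0.1% of UMIs or more were left out, which removed 887 heterozygous and 31 homozygous cells, members were 29.1% (25.8 to 32.6%) of 721 and 30.1% (25.8 to 34.6%) of 442 cells. The difference was then 0.964 percentage points (-4.51 to 6.55), an alternative chosen after seeing the data. This alternative took out other cells only, and far more of them in the heterozygous library, so that the heterozygous share had to rise more. All tested lateral mesenchyme, muscle and cardiomyocyte genes were higher in the other cells of the homozygous library. No cell was left out for carrying these genes. Whether the make-up of the other cells accounts for the higher homozygous share was not tested.

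The globin share varied more than 10-fold among members. In heterozygous members it ran from 1.01% over a median of 2.98% to 12.0%, and in homozygous members from 1.01% over 3.78% to 10.98%. There was no gap at the limit. The members nearest to it had 1.01% in both libraries, and the cells just outside had 0.973% (heterozygous) and 0.990% (homozygous). Between 0.5 and 1% lay 74 heterozygous and 22 homozygous cells.

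**Figure D1:**
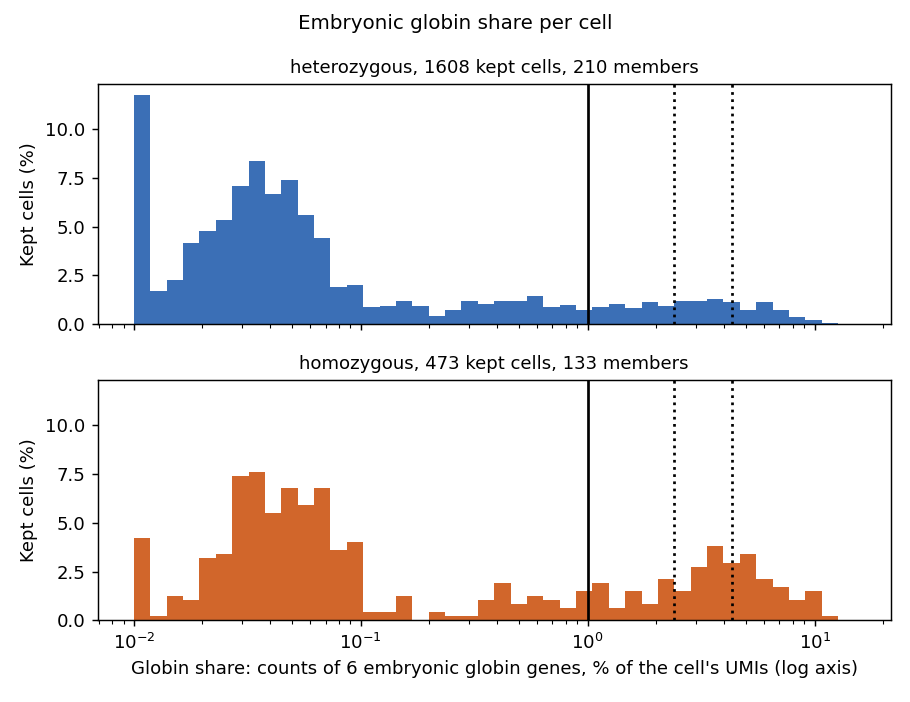
Histogram of the share of the 6 embryonic globins among the UMIs of each kept cell (log axis), as percent of the kept cells of each library, with cells under 0.01% placed in the first bar. The solid line is the 1% limit and the dotted lines, at 2.40 and 4.34%, split the members into low, middle and high globin. Most cells lie under 0.1%, and members form a broad upper group that takes 28.1% of homozygous and 13.1% of heterozygous cells.

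The erythroid label was compared with genes outside the rule. The transcription factor klf17, which acts in primitive erythroid cells, stood at 792 CPM in heterozygous members against 63.0 CPM in other cells, and at 705 CPM in homozygous members against 54.2 CPM. The red cell carbonic anhydrase cahz stood at 520 against 28.7 CPM and at 456 against 25.2 CPM. After each cell was thinned to 5157 UMIs, klf17 was detected in 94.8% of 192 heterozygous and 92.9% of 127 homozygous members, against 13.1% and 11.9% of the other cells, with 18 and 6 shallower members left out. Without thinning these shares were 98.1% and 95.5% against 16.7% and 17.1%. Both genes were among the markers given for these cells, and the contrast uses the same cells as the rule, so these values describe the members and test nothing.

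Markers of other cell types were also examined in members. The endothelial cadherin cdh5 had 16 heterozygous and 0 homozygous counts in members, and of the leukocyte genes lcp1 had 3 heterozygous and 0 homozygous counts and mpeg1.1 had 0 in both. Summed over 10 endothelial markers, heterozygous members had 247 CPM, beside 1478 CPM in the remaining cells, and homozygous members 124 CPM beside 192 CPM. Of these 10 genes, 3 had no count in homozygous members, and the largest single part came from fli1a (87.1 and 47.9 CPM), an ETS factor shared with blood progenitors. Large parts also came from ecscr among heterozygous members (63.0 CPM) and from crip2 among homozygous ones (46.6 CPM). The 11 macrophage markers summed to 395 and 355 CPM, beside 748 and 162 CPM in the other cells, nearly all of it in members from the myeloid regulators cebpa and spi1b. In thinned members cebpa was found in 69.3% of cells of either library, against 32.4% (heterozygous) and 15.3% (homozygous) of other cells (unthinned 86.7% and 86.5% against 36.0% and 20.6%). Of these 11 genes 4 in heterozygous and 7 in homozygous members had no count. Lists of 7 muscle, 6 cardiomyocyte, 6 neural and 5 thrombocyte genes each summed to under 10 CPM in members of either library, and 6 lateral mesenchyme genes to 16.5 and 20.6 CPM. Epidermal genes, 6 in number, summed to 145 and 106 CPM beside 787 and 474 CPM in other cells. The labels name the sorted cells endothelial. Of the defining endothelial markers, a UMI of cdh5 was found in 3.65% of thinned heterozygous members beside 26.5% of other cells. In the homozygous library it was found in 0% beside 1.15%. Among heterozygous members it was found in 9.86% of 71 low globin cells and in 0% of middle and high ones. A UMI of ecscr was found in 27.1% of thinned heterozygous members beside 28.8% of other cells, and in 6.30% of homozygous members beside 3.45% (unthinned 42.4% beside 35.8%, and 8.27% beside 3.82%). In low globin heterozygous members the thinned ecscr share was 43.7%.

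The members were set against the other kept cells of the same library. A gene counted as tested with at least 50 counts over both groups and as called at a 2-fold difference in CPM. Of 8623 genes tested in the heterozygous library, 8.43% were at least 2-fold higher and 25.6% at least 2-fold lower in members. In the homozygous library these shares were 9.6% and 19.1% of 5791 genes. Of genes tested in both libraries, 350 were higher in both, which is 66.2% of those higher in the heterozygous and 63.3% of those higher in the homozygous library, and 854 were lower in both (82.3% and 80.0%). Because the rule used globin counts of these cells, all of these differences are descriptions.

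Besides the 6 globins that define the members, 3 further hemoglobin genes were abundant in them. The embryonic beta-type gene hbbe2 stood at 849 CPM in heterozygous and 1194 CPM in homozygous members, against 62.3 and 72.1 CPM in the other cells. The alpha-type gene hbz (hemoglobin zeta) stood at 557 and 534 CPM against 36.9 and 39.4 CPM, and hbae5 at 178 and 315 CPM against 23.1 and 37.9 CPM. The globins of the adult, hbaa1, hbaa2, hbba1 and hbba2, were hardly detected. The most counts in all members together were 14 for hbaa2 (heterozygous) and 7 for hbaa1 (homozygous). Of 10 further globin genes listed, 7 were found under their symbols in the files. The genes hbae1.1, hbae1.2 and hbae4 were not analysed here.

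Enzymes and transporters of heme synthesis were higher in members throughout. Of 14 listed genes, 13 (heterozygous) and 12 (homozygous) could be tested, and each of them was at least 2-fold higher. Their median ratio was 8.91 and 7.53, against 0.911 and 0.981 over all tested genes. The first enzyme of the pathway in red cells, alas2, stood at 297 CPM in heterozygous members against 33.4 CPM (8.91-fold, 7.96 to 9.99) and at 396 CPM in homozygous members against 75.8 CPM (5.23-fold, 4.58 to 5.98). Ferrochelatase, fech, which inserts the iron, was 12.7-fold (8.72 to 18.8) and 9.70-fold (6.01 to 16.4) higher. The mitochondrial porphyrin transporter tmem14ca was 13.3-fold and 14.3-fold higher, and hmbsb, a hydroxymethylbilane synthase, 12.7-fold and 18.9-fold. The lowest ratios were those of slc25a38b, the mitochondrial glycine carrier, at 2.93-fold (heterozygous), and of fam210b, which acts in mitochondrial iron and heme metabolism, at 3.35-fold (homozygous).

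Genes of iron handling were less uniform. Of the 15 in the files, 12 were tested in the heterozygous library, of which 7 were 2-fold higher and 2 lower, and 10 in the homozygous library, of which 9 were higher and 0 lower. Mitoferrin, slc25a37, which carries iron into mitochondria, stood at 15.2 against 1.51 CPM and at 21.9 against 1.3 CPM. Biliverdin reductase B, blvrb, was 12.8-fold and 13.7-fold higher. The ferritin heavy chain gene fth1a was 2.19-fold and 2.23-fold higher and the glutaredoxin glrx5, needed for iron-sulfur clusters, 3.94-fold and 3.39-fold. Heme oxygenase hmox1a, which degrades heme, had 1 count in the members of each library, and was 2-fold lower in the heterozygous one, as was the iron exporter slc40a1. The transferrin receptor tfr1a had only 12 and 25 counts in members and could not be tested.

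Genes of the red cell membrane and its skeleton were also higher. All 7 genes tested of 12 in the files were 2-fold higher in both libraries, with a median ratio of 13.6 and 12.2. The anion exchanger slc4a1a (band 3) stood at 33.6 against 1.22 CPM and at 36.3 against 0.778 CPM, which is 27.5-fold (16.3 to 49.0) and 46.6-fold (15.4 to 231) higher. The skeleton genes epb41b (protein 4.1), sptb (beta-spectrin) and add2 (beta-adducin) were 25.5-fold, 8.38-fold and 13.6-fold higher in heterozygous members, and 12.2-fold, 11.6-fold and 10.8-fold higher in homozygous ones. The ankyrin genes ank1a and ank1b had no count in any member. A count of 0 among the 3031514 heterozygous or 2423500 homozygous member UMIs allows a level of up to 3 counts.

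Of the transcription factors listed for red cells, 14 were tested among heterozygous cells, of which 9 were 2-fold higher and 4 lower, and 12 among homozygous cells, of which 8 were higher and 2 lower. The master regulator gata1a stood at 232 and 280 CPM in members against 20.8 and 25.4 CPM, a ratio of 11.1 (9.70 to 12.8) and 11 (8.90 to 13.8). The repressor gfi1aa, klf17, the zinc finger genes blf, drl and znfl2a, klf3 and myb were also at least 2-fold higher in both libraries. The level of blf was 1117 and 830 CPM in members and 201 and 46.4 CPM in other cells, ratios of 5.54 and 17.9. Different values were found for tal1 and lmo2, which blood cells share with endothelial progenitors. Summed counts of lmo2 were lower in members than in other cells of both libraries, at 832 against 2451 CPM and at 458 against 982 CPM. The share of thinned cells with a UMI of lmo2 was higher in members. It was 95.3% beside 76.0% of other cells (heterozygous) and 82.7% beside 50.2% (homozygous). Unthinned, 98.1% and 97.0% of members had one. Summed counts of tal1 were lower in heterozygous members (602 against 1098 CPM, ratio 0.548) and higher in homozygous members (427 against 261 CPM, ratio 1.64). A UMI of tal1 was found in 90.6% of thinned heterozygous members beside 68.2% of other cells, and in 87.4% beside 32.2% (homozygous). The erythroid factor nfe2 was sparse, at 19.5 and 12.0 CPM, and its level in other cells was 1.297 and 0.778 CPM. The erythroid gene klf1 had only 30 and 17 counts in members.

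**Figure D2:**
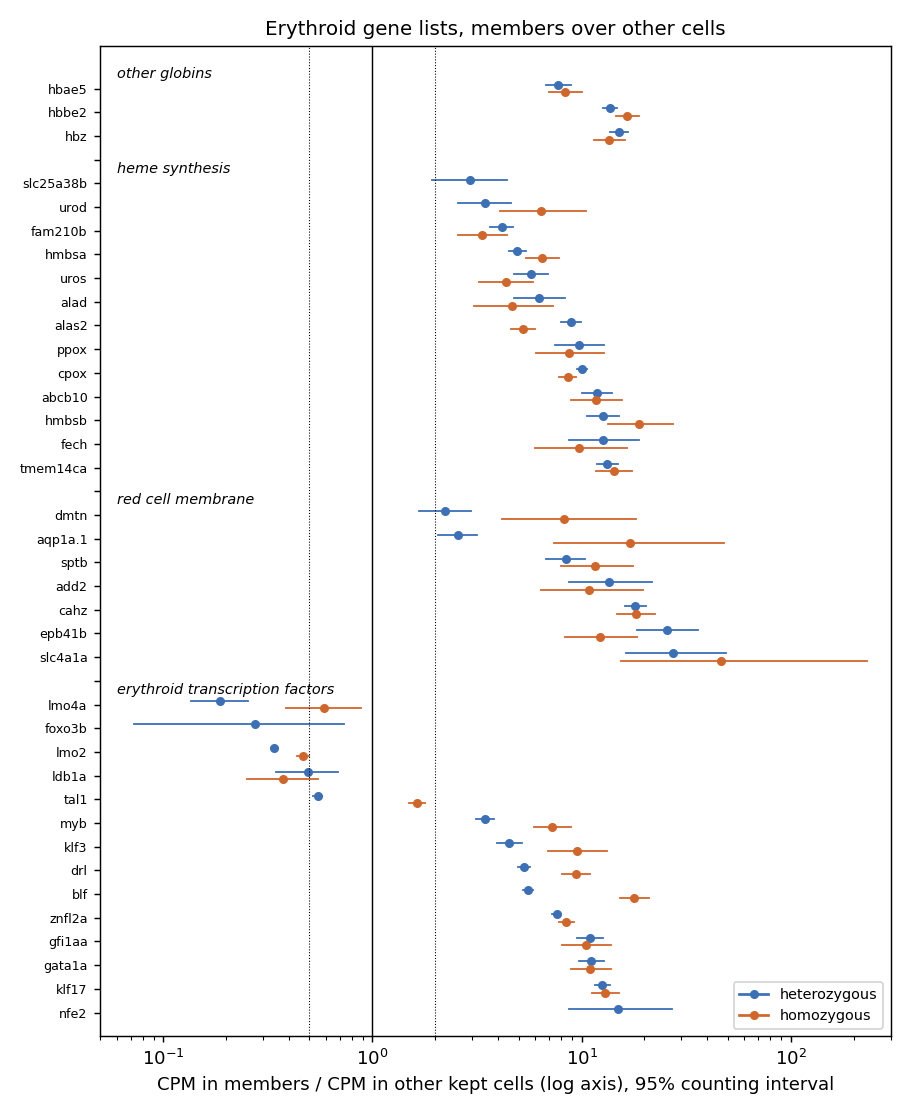
Ratio of CPM in members to CPM in other kept cells (log axis) for the tested genes of 4 lists, with 95% counting intervals, heterozygous in blue and homozygous in orange. Dotted lines mark 2-fold. All tested genes of heme synthesis, the red cell membrane and the other globins lie above 2-fold, while lmo2, lmo4a and ldb1a lie under 1 in both libraries.

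Of the genes at least 2-fold higher in both libraries, the 10 with the highest smaller ratio outside the rule included slc4a1a, cahz, hbbe2 and hbz. The others were ankhb, a pyrophosphate exporter (19.4-fold and 35.5-fold), the glycerol-3-phosphate dehydrogenase gpd1b (19.0-fold and 23.6-fold), zgc:101663 (27.5-fold and 16.2-fold), and 3 genes known only by clone names, among them si:ch211-207c6.2 (19.6-fold and 25.8-fold) and si:ch211-227m13.1 (13.9-fold and 16.3-fold). Each of the 10 genes at the lower end had at most 7 heterozygous and 13 homozygous counts in members. These genes included the transcription factors foxd2, ebf1a, zfhx4, mef2cb and six1a, the chemokine cxcl12b and the endothelial proteoglycan esm1. Beside them stood si:ch211-193l2.5 and the unnamed ENSDARG00000056490. For example, cxcl12b stood at 2.31 CPM in heterozygous and 5.36 CPM in homozygous members, against 110.4 and 257 CPM.

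By median ratio, signalling genes (1.53 and 1.58), antioxidant genes (1.41 and 1.26) and cell cycle genes differed less than those of heme synthesis. Single signalling and antioxidant genes differed by more. The erythropoietin receptor epor, although sparse at 12.9 and 21.9 CPM, was 10.5-fold (5.81 to 19.8) and 9.36-fold (4.58 to 21.6) higher in members, and its kinase jak2a 3.81-fold and 3.77-fold. Of 8 genes of this pathway tested, 3 were 2-fold higher and 1 lower in each library. Peroxiredoxin 2, prdx2, an abundant antioxidant enzyme of red cells, stood at 1379 against 324 CPM and 1441 against 325 CPM. Of 8 antioxidant genes 7 were tested, and 2 of them, prdx2 and thioredoxin txn, were 2-fold higher in both libraries. DNA replication genes had a median ratio of 1.66 and 1.49 over 14 tested, with 2 of them 2-fold higher in each library: mcm2 and gins2 among heterozygous cells, gins2 and cdca7a among homozygous ones. Mitosis genes had a median of 1.18 and 1.2, and 0 of 14 and 0 of 13 were called. The cell cycle inhibitors cdkn1bb and cdkn1ca were lower in members, cdkn1bb at 0.371 and 0.406 times and cdkn1ca at 0.294 and 0.180 times the level of other cells. Of this list 4 of 7 and 3 of 6 genes were 2-fold lower and 0 higher. Over all tested genes 25.6% and 19.1% were 2-fold lower in members, so some such calls are due in any list. Progenitor genes shared with the endothelium were mostly lower as well, with 7 of 10 tested 2-fold lower and only myb higher among heterozygous cells, and 6 of 10 lower and again only myb higher among homozygous ones. For example, tmem88a stood at 21.1 and 2.89 CPM in members, with 35.9% of its heterozygous counts in a single cell.

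Members were next compared among themselves along the globin share. Limits of 2.40% and 4.34%, which split all members into 3 equal parts, gave 81 low, 68 middle and 61 high globin members among heterozygous and 33, 47 and 53 among homozygous cells. Of 2781 genes tested between high and low globin members of the heterozygous library 1.8% were 2-fold higher and 4.1% lower. Of 2386 in the homozygous library 3.27% were 2-fold higher and 2.77% lower. Called in both libraries were 23 higher and 27 lower genes. Median depth was 14543, 15778 and 16845 UMIs from low to high in heterozygous members, and 18055, 17985 and 20716 UMIs in homozygous ones. The 6 globins are higher in high globin members by construction.

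Genes of heme synthesis and of the red cell membrane were higher with more globin. Of 6 and 5 membrane genes tested, 3 in each library were 2-fold higher and 0 lower. Of 12 heme synthesis genes tested, 9 were 2-fold higher in high than in low globin members in each library and 0 lower, with a median of 2.30 and 2.47 against 0.926 and 0.972 over all tested genes. The porphyrin transporter tmem14ca went from 159 over 406 to 614 CPM in heterozygous and from 165 over 356 to 645 CPM in homozygous members. Other steps of the pathway moved alike, with hmbsb at 91.9, 152 and 261 CPM and at 74.2, 162 and 246 CPM, and fech at 19.6, 32.9 and 56.0 CPM and at 19.8, 44.2 and 72.5 CPM. Lower ratios were those of cpox (1.40 and 1.45), of alas2 (2.08 and 1.56) and, in the homozygous library, of fam210b (2.04 and 1.09).

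The band 3 gene slc4a1a had the highest ratio of the listed genes tested in both libraries. It stood at 5.87, 22.6 and 76.1 CPM in low, middle and high globin members of the heterozygous library, and at 6.6, 18.2 and 66.8 CPM in the homozygous one, 13.0-fold (5.67 to 36.5) and 10.1-fold (3.78 to 38.2) from low to high. A single cell held 23.6% of the slc4a1a counts of high globin members in the heterozygous library. At 5157 UMIs a cell it was found in 2.82% of 71 low and 17.5% of 57 high globin cells in the heterozygous library (7.41% and 44.3% unthinned), and in 6.45% of 31 and 19.6% of 51 in the homozygous one (9.09% and 52.8% unthinned), beside 0.461% and 0% of other cells at equal depth. The mitochondrial protein tspo (6.42-fold and 5.21-fold), thioredoxin txn (3.51-fold and 3.41-fold), epb41b (3.13-fold and 2.75-fold), the clathrin adaptor subunit ap1b1 (2.72-fold and 2.84-fold), urod (3.60-fold and 2.71-fold) and alad (2.58-fold and 5.30-fold) completed the leading genes. The LIM protein gene crip2, which stands on the endothelial list, went from 8.80 to 50.7 CPM and from 11.5 to 75.4 CPM, while cdh5 had at most 10.8 CPM in any of these groups.

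Erythroid transcription factors had median ratios of high to low globin members of 1.21 (heterozygous) and 1.62 (homozygous), beside 0.926 and 0.972 over all genes tested. In the heterozygous library 0 of 10 tested were 2-fold higher, with gata1a at 199.5, 239 and 259 CPM and klf17 at 681, 827 and 874 CPM. In the homozygous library 3 of 10 were higher, namely gata1a (346 CPM in high globin members, 2.16-fold), klf3 (2.86-fold) and blf (2.03-fold). The globins outside the rule did not move together. The gene hbz was 2.51-fold and 2.29-fold higher in high globin cells and hbbe2 1.90-fold and 3.07-fold, whereas hbae5 had ratios of 0.788 and 1.57.

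**Figure D3:**
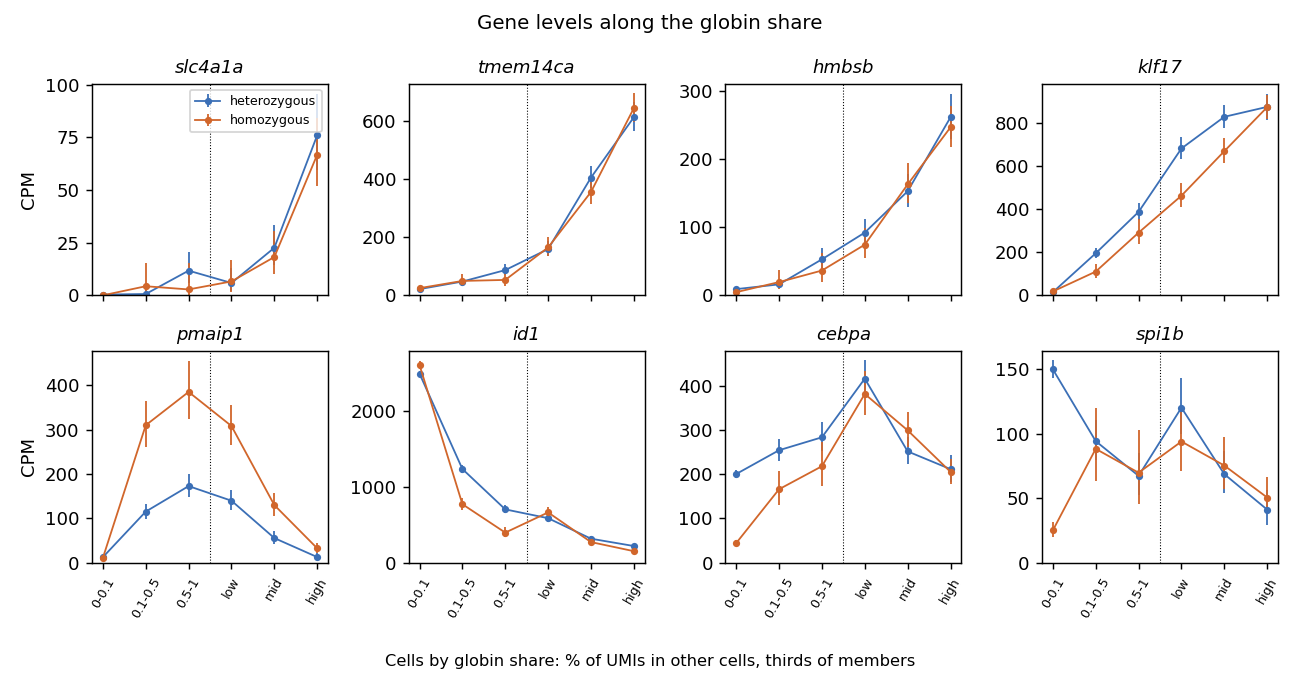
CPM of 8 genes (linear axes from 0) in cells binned by globin share, with 95% Poisson intervals. To the left of the dotted line are other kept cells with 0 to 0.1, 0.1 to 0.5 and 0.5 to 1% globin, to the right members with low, middle and high globin. In members slc4a1a, tmem14ca, hmbsb and klf17 are higher with more globin, while pmaip1, id1, cebpa and spi1b are lower.

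Ranked by the smaller fold of both libraries, the gene most reduced with more globin was pmaip1, which encodes the pro-apoptotic protein Noxa. It stood at 140, 55.5 and 12.7 CPM in low, middle and high globin members of the heterozygous library and at 308 CPM in low and 32.4 CPM in high globin members of the homozygous one, ratios of 0.0906 (0.0458 to 0.163) and 0.105 (0.0707 to 0.152). A UMI of it was found in 32.4% of low and 8.77% of high globin cells of the heterozygous library, and in 54.8% and 3.92% of the homozygous one, all thinned to 5157 UMIs. Unthinned, these shares were 55.6% and 16.4%, and 72.7% and 20.8%.

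The myeloid regulators cebpa and spi1b had lower levels in high globin cells. The transcription factor cebpa, known from myeloid differentiation, went from 416 over 251 to 211 CPM (heterozygous) and from 381 over 299 to 205 CPM (homozygous), ratios of 0.508 (0.427 to 0.603) and 0.538 (0.445 to 0.651) just short of 2-fold. For spi1b (PU.1) the levels were 120, 68.7 and 41.2 CPM and 94.0, 75.4 and 50.6 CPM, with ratios of 0.342 and 0.538, although at equal depth the share of homozygous cells with a spi1b UMI was 22.6% in low and 21.6% in high globin members. In thinned other cells spi1b was found in 21.6% (heterozygous) and 6.51% (homozygous). The leukocyte genes lcp1, mpeg1.1, fcer1gl and cxcr3.2 each had at most 6 heterozygous and 0 homozygous counts in all members. The inhibitor of differentiation id1 was at 0.374 and 0.229 times the low globin level. The chromatin genes hmgb3a (0.234 and 0.259) and hmgb1b (0.381 and 0.274), the proton channel hvcn1 (0.146 and 0.193), wasf3b (0.183 and 0.322), hacd1 (0.313 and 0.332), myl6 (0.360 and 0.223), fxyd6l (0.360 and 0.298) and si:ch211-11n16.3 (0.156 and 0.0190) were also among the 10 lowest.

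Replication and mitosis genes differed little between high and low globin members. The median ratio of high to low was 0.761 and 0.914 for DNA replication and 0.946 and 0.829 for mitosis, against 0.926 and 0.972 over all tested genes. The summed replication genes were highest in middle globin members. From low to high they stood at 1759, 2046 and 1324 CPM (heterozygous) and at 1621, 1748 and 1437 CPM (homozygous). The summed mitosis genes stood at 809, 714 and 806 CPM and at 1097, 946 and 866 CPM. Of 14 and 13 replication genes tested 0 were 2-fold higher or lower, and of 10 and 11 mitosis genes 0 and 1 were lower. The proliferation marker mki67 stood at 145 CPM in low and 170.1 CPM in high globin members of the heterozygous library, and at 198 and 163 CPM in those of the homozygous one.

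Members of the homozygous library were then set against members of the heterozygous library. Of 4864 genes tested, 1.38% were at least 2-fold higher and 1.71% at least 2-fold lower in homozygous members. At these low shares few calls are due in any short list, so few calls in the erythroid lists say little. The median ratio over all tested genes was 0.949. Of 13 heme synthesis genes 0 were 2-fold higher and 1 lower, with a median ratio of 0.990, and of 7 membrane genes 0 were called in either direction, with a median of 1.08. Of 13 erythroid transcription factors tested 0 were called, with a median of 0.840. The gene alas2 stood at 297 CPM in heterozygous and 396 CPM in homozygous members (1.33-fold, 1.22 to 1.46). In the other cells it was 2.27-fold higher in the homozygous library. The heme synthesis gene called lower was fam210b, at 156 and 71.4 CPM (ratio 0.458, 0.383 to 0.547), which was also lower among the other cells (0.568). Within low, middle and high globin members its ratios were 0.681, 0.386 and 0.366.

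Immediate early genes, switched on within minutes of a stimulus, were mostly higher in homozygous members. Of 12 tested, 7 were 2-fold higher and 0 lower, with a median ratio of 2.22. The AP-1 gene fosab stood at 543 and 1091 CPM (2.01-fold), junba at 96.0 and 275 CPM (2.86-fold), egr1 at 15.5 and 60.2 CPM (3.89-fold) and jdp2b at 41.6 and 201 CPM (4.84-fold). The same genes were higher in the other cells of the homozygous library, fosab 2.03-fold, junba 1.81-fold, egr1 2.21-fold and jdp2b 4.35-fold, so that the difference was seen in other cells too. The cytokine signalling inhibitor socs3b was 4.70-fold higher in members and 7.57-fold in others. Differences between the libraries other than genotype were not tested.

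**Figure D4:**
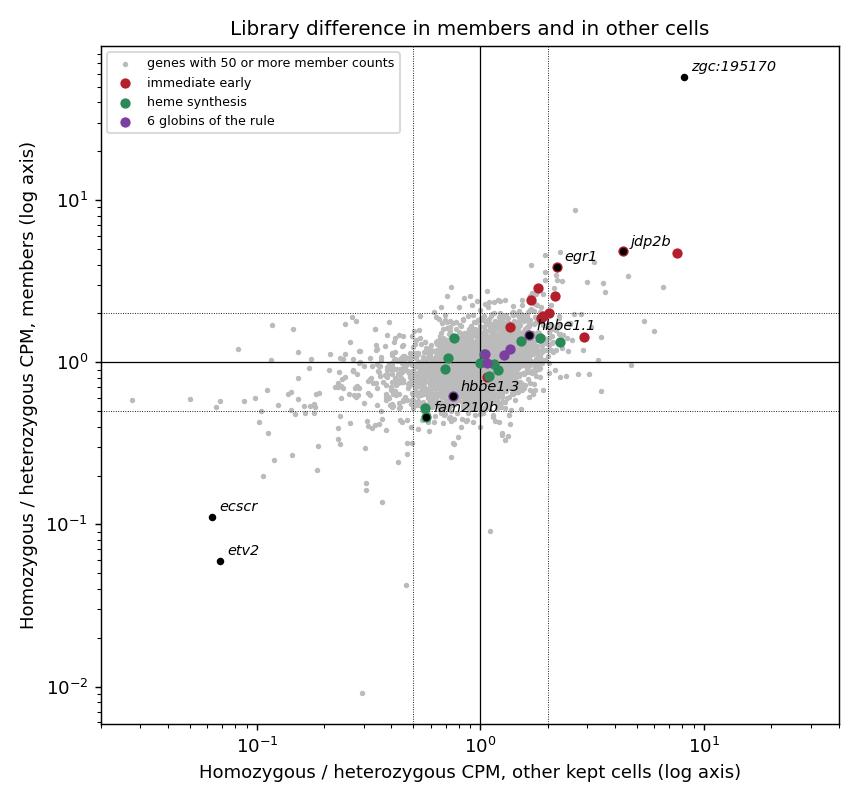
Ratio of homozygous to heterozygous CPM in members (vertical) against the same ratio in other kept cells (horizontal), log axes, 1 point per gene with at least 50 counts in members. Dotted lines mark 2-fold. Of 12 immediate early genes 7 lie above 2-fold in members and btg1 lies below 1 (0.816), ecscr and etv2 lie to the lower left, and the genes of heme synthesis between 0.458 (fam210b) and 1.41.

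Other genes differed by more. The uncharacterized gene zgc:195170 had 2 counts in heterozygous and 92 in homozygous members (57.5-fold, 15.5 to 482), and was at 16.5, 59.8 and 34.4 CPM in low, middle and high globin members of the homozygous library. The next outside that list were zgc:109934 (8.62-fold), soul3 (4.78-fold), the LIM protein gene crip1 (4.56-fold), FP325123.5 (4.17-fold), the AP-1 gene fosl1a (3.97-fold) and the cytochrome oxidase subunit gene cox8b, at 18.8 and 68.1 CPM (3.62-fold). All of them were also higher in the other homozygous cells, by 1.69-fold to 3.22-fold except for the sparse zgc:195170.

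Endothelial transcripts were among those lower in homozygous members. The endothelial surface protein gene ecscr stood at 63.0 CPM in heterozygous and 7.01 CPM in homozygous members (ratio 0.111, 0.0635 to 0.183), beside 140.5 and 8.82 CPM in the other cells. In heterozygous members it was highest in low globin cells, at 122 CPM, and 19.0 CPM in high globin cells. Of 5 endothelial genes tested 3 were 2-fold lower, namely ecscr, egfl7 (29.4 and 7.84 CPM) and sox7 (20.8 and 9.90 CPM). The gene crip2 went the other way, at a ratio of 1.91 (1.41 to 2.60), and fli1a lay at 0.550. The summed level of the endothelial list in heterozygous members ran from 0 at the 5th percentile over a median of 193 to 765 CPM at the 95th, and in homozygous members from 0 over 89.9 to 376 CPM. With free RNA subtracted the ratio of ecscr was 0.109, and without the Scrublet doublets it was 0.111. The blood and endothelial regulators lmo2 (ratio 0.551) and tal1 (0.710), like fli1a, had lower levels in homozygous members, without reaching 2-fold.

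The keratin genes cyt1 (138 and 1 counts) and krt4 (119 and 4 counts) had low ratios too. A single heterozygous cell held 89.9% of the krt4 counts. Neither gene was ranked, because for each a single cell held a larger part of the counts than the ranking allows. Their low ratios may therefore rest on few cells. The gene cyt1 is not on the epidermal list. Of 4 epidermal genes tested krt4 and krt8 (0.479) were 2-fold lower and epcam 2-fold higher (2.06), with a median of 0.948. Beside ecscr, the ranked genes of the 10 lowest ratios had at most 14 counts in homozygous members. They were si:ch211-152c2.3 (110 and 8 counts, ratio 0.0910), rbm7 (0.199), si:ch211-156j16.1 (0.217), pcmtl (0.243), the oxidative stress regulator nfe2l2a (0.25), the actin-binding gene cnn2 (0.262), dnase1l1l (0.272), ascc1 (0.297) and the actin regulator cap1 (0.305). For rbm7, nfe2l2a and cap1 the ratio in the other cells was lower still, at 0.106, 0.119 and 0.188. The gene si:ch211-152c2.3 differed from these, since its level in other cells was 139 CPM (heterozygous) and 154 CPM (homozygous).

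The globins themselves differed in make-up between the libraries. The 6 genes made up 3.68% of the UMIs of heterozygous and 4.34% of those of homozygous members. The beta-type gene hbbe1.1 stood at 8224 CPM in heterozygous and 12107 CPM in homozygous members (1.47-fold), while hbbe1.3 of the same gene cluster stood at 2446 and 1512 CPM (ratio 0.618, 0.594 to 0.643). These directions held in low, middle and high globin members alike, with hbbe1.1 at 1.35-fold, 1.1-fold and 1.40-fold and hbbe1.3 at 0.461, 0.791 and 0.448. The other globins of the rule lay closer to 1, at 1.21 for hbae1.3, 1.1 for hbae3, 1.13 for hbbe3 and 0.983 for hbbe1.2. Outside the rule hbbe2 was 1.41-fold and hbae5 1.77-fold higher in homozygous members, and hbz did not differ beyond counting error (0.958, 0.890 to 1.03).

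Single cells showed that the hbbe1.3 share was not evenly distributed. Of the counts of hbbe1.1, hbbe1.2 and hbbe1.3 together, hbbe1.3 took a median of 20.0% in heterozygous members, with quartiles of 6.46 and 32.1%, and of 6.82% in homozygous members, with quartiles of 4.22 and 11.1%. Under 10% were 77 of 210 heterozygous cells (36.7%, 30.1 to 43.6%) and 94 of 133 homozygous cells (70.7%, 62.2 to 78.2%), 26 and 19 cells lay between 10 and 20%, and 107 and 20 cells at 20% or more. Cells on both sides of 15%, a limit set after seeing these values, had similar globin shares (median 3.08% above and 2.73% below in heterozygous, 3.96% and 3.73% in homozygous members). The split itself fixes a higher hbbe1.3, at 4.72-fold and 4.65-fold, and a lower hbbe1.1, at 0.606 and 0.636 times the level of the lower set. The upper set held 118 heterozygous and only 25 homozygous members, and the lower set 92 and 108. Of 3583 genes tested in the heterozygous library, 12 were 2-fold higher and 6 lower in the upper set. Of 2701 tested in the homozygous one, 20 were higher and 87 lower. Of these hbbe1.3 was higher in both libraries, and 0 genes were lower in both. The 3 hbbe1 genes are close copies of each other, and reads shared between copies may have been split or dropped in counting, which was not tested.

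**Figure D5:**
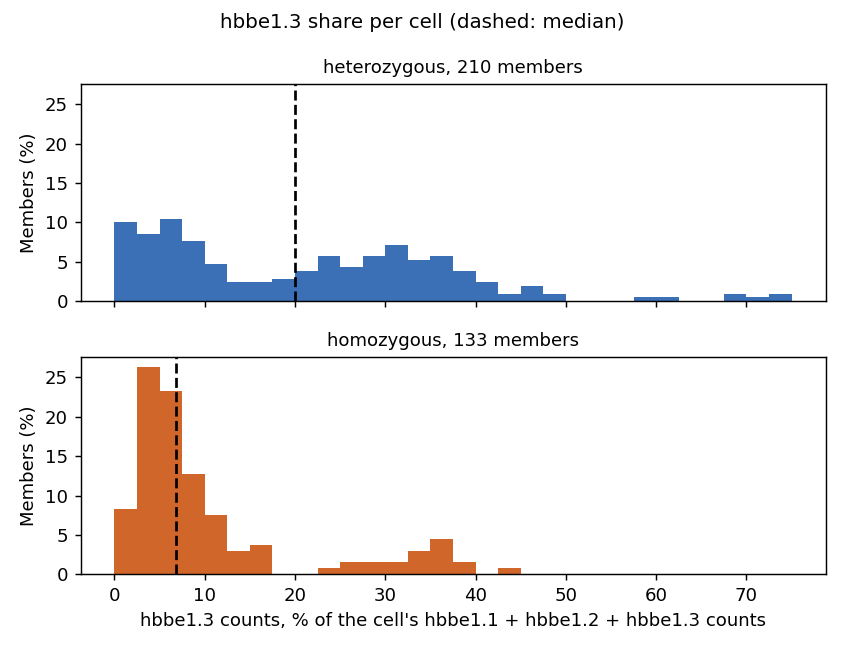
Share of hbbe1.3 among the hbbe1.1, hbbe1.2 and hbbe1.3 counts of each member (horizontal, percent), as percent of the members of each library, with the median dashed. Heterozygous members spread over 0 to 73.4% with 107 of 210 cells at 20% or more, while homozygous members gather under 10% with 20 of 133 cells at 20% or more.

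The balance of alpha-type and beta-type chains was more even. The alpha-type genes hbae1.3 and hbae3 took a median of 38.8% of the counts of the 6 globins per cell in heterozygous and 38.0% in homozygous members. Their part was larger with more globin, from 33.8 over 37.7 to 42.2% in low, middle and high globin cells (heterozygous) and from 32.6 over 39.5 to 39.5% (homozygous). Within the beta-type genes, hbbe3 took a median of 48.9% per cell in heterozygous and 44.7% in homozygous members, and within the alpha-type genes hbae3 took 48.3% and 45.3%. These shares count captured 3' ends and depend on how well each copy is recognized.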

How the data were processed

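GFP-positive cells of 2 libraries, 1 per genotype, were measured by droplet 3' single-cell RNA-seq. The deposited matrices hold UMI counts per gene and barcode, which the authors made with Cell Ranger and did not normalize. The submitters' processing notes name Cell Ranger 2.0.2 and the zebrafish build GRCz10. The gene annotation is not given in the sources used here, and near-identical globin copies could be split or dropped in counting. The files held 19256969 heterozygous and 7244035 homozygous UMIs over 25743 genes.

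Counts were summed over cells of a group and given as CPM of all UMIs. Genes with at least 50 counts over both groups counted as tested, and a 2-fold ratio as called. With 1 library per genotype no test was possible. Ratios carry exact 95% intervals from the 2 counts, shares Clopper-Pearson intervals and their difference a Newcombe interval, and a count of 0 was set to a floor of 3 counts in a ratio. All cover counting error only. Shares of cells with a UMI were taken after random thinning to 5157 UMIs a cell, which is the 20th percentile of depth over kept cells. Low, middle and high globin members were split at 2.40 and 4.34% over the pooled members. No cell was removed as a doublet.

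The members and the 22 gene lists (215 genes, 207 in the files) were chosen with earlier results of these data known. Named genes are those of the lists and, per comparison, the 10 highest and 10 lowest ratios outside the 6 rule genes with no cell holding over 20% of the counts of the higher group, for the first 2 comparisons called alike in both libraries and ranked by the smaller fold. Symbols with more than 1 entry, such as hbba1 and socs3a, were kept as separate entries. A few genes that met this rule are not reported here. The ratio code was tested on simulated data. Alternatives were globin limits of 0.5 and 2%, a depth of 5000 UMIs, minimums of 20 counts and of 1 count in each group, a 3-fold call, CPM of UMIs outside hemoglobin genes, subtraction of the profile of barcodes with 1 to 100 UMIs, leaving out the deepest 5% of cells, Scrublet doublets or the cell with most counts of each gene, a split of members at the median globin share, values within the 3 globin groups, thinning to the 40th percentile and no thinning. After the data were seen, cells with endothelial or macrophage markers were left out of the member share. The analysis used Python 3.11.15, numpy 2.4.6, scipy 1.17.1, pandas 2.3.3, scanpy 1.11.5 and matplotlib 3.10.9.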

Additional observations from a re-analysis of the deposited data

Results flagged for a closer look

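For 5 of the listed genes, the summed CPM in members was flagged as moving opposite ways in the libraries relative to the other cells. The share of all tested genes that did so is not given here, so whether 5 is many cannot be told. The blood and endothelial regulator tal1 was at 0.548 times the other cells among heterozygous and at 1.64 times among homozygous cells, fli1a at 0.434 and 1.33 times, the myeloid factor spi1b at 0.564 and 1.88 times, and the survival gene mcl1a at 0.628 and 1.21 times. The repressor her6 went the other way, at 1.19 and 0.584 times. The share of cells with a UMI, thinned to 5157 UMIs, was higher in members of both libraries for tal1 and spi1b. For tal1 it was 90.6% beside 68.2% of other cells (heterozygous) and 87.4% beside 32.2% (homozygous). For spi1b it was 29.17% beside 21.6% (heterozygous) and 22.05% beside 6.51% (homozygous). Such shares are not given here for fli1a, mcl1a and her6. The difference between the libraries was not tested for any of the 5 genes, since each genotype had 1 library. The other cells of the heterozygous library had 1478 CPM of summed endothelial markers and those of the homozygous library 192 CPM, and the part of this difference in the 5 ratios was not tested.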

How the results depend on the processing

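With a limit of 2% globin, members were 9.02% and 23.0% of heterozygous and homozygous kept cells, and 29 genes were higher and 46 lower in high globin cells (heterozygous) and 36 higher (homozygous). With 0.5% the shares were 17.7% and 32.8%, 116 and 172 genes were higher in high globin cells, 125 were lower in homozygous members, and si:ch211-11n16.3 reversed, at 1.06 and 1.56 times the other cells. The numbers of genes tested at either globin limit are not given here, so these gene counts cannot be read as shares. With 5000 UMIs the heterozygous share was 14.97%. Without cells carrying endothelial or macrophage markers, an alternative chosen after seeing the data, it was 29.1% and the difference 0.964 points.

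With 20 counts, 881 and 2042 genes were higher and lower in homozygous members than others, 140 and 374 in high globin cells (heterozygous), 239 and 277 (homozygous), and 258 and 289 in homozygous against heterozygous members. With 1 count in each group, 1838 were higher in heterozygous members, 1598 higher and 2658 lower in homozygous members, 840 and 1416 and (homozygous) 803 and 1385 with high globin, and 1095 and 1020 between genotypes. At 3-fold, 221 and 225 were higher in members, 14 and 35 (heterozygous) and 22 and 23 (homozygous) with high globin, and 17 and 23 between genotypes. A 3-fold call admits fewer genes by construction, and a lower minimum lets more sparse genes into the comparison. The numbers of genes tested under these settings are not given here, so these counts cannot be read as shares. Within low globin members 29 genes were higher between genotypes, and within high globin members 30 higher and 34 lower, again without the numbers tested.

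The other alternatives were CPM outside hemoglobin genes, subtraction of free RNA, leaving out Scrublet doublets, the deepest 5% of cells or each gene's top cell, a split of members at the median globin share, and other thinning depths. Over all alternatives that give single-gene ratios and shares, 5952 stayed within their counting interval, 848 moved and 2 reversed. The settings differed in this. Without Scrublet doublets 3 moved and 780 stayed. With 2% globin 238 moved and 505 stayed, and with 0.5% globin 197 and 588. Ratios of homozygous to heterozygous members moved in 58 and stayed in 52 cases within low globin members. Within middle globin members these were 45 and 68, and within high ones 48 and 64, with fewer counts per ratio. Both reversals were for si:ch211-11n16.3 at 0.5% globin. At that limit the cells with 0.5 to 1% globin counted as members instead of other cells. Levels of si:ch211-11n16.3 were high in those cells, as given below. Their part in the reversals was not tested. No paired analysis was possible because each genotype had 1 library and no test was made. Genes with few counts in members, such as klf1 and tfr1a, could not be compared at this depth.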

Other observations

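Cells just under the globin limit belonged to no comparison of members. Kept cells with 0.1 to 0.5% globin numbered 147 (heterozygous) and 30 (homozygous), and those with 0.5 to 1% numbered 74 and 22. Their levels of klf17 and gata1a lay between those of the cells under 0.1% and those of the members. For klf17 the levels were 14.4, 195 and 387 CPM in the 3 heterozygous groups in order of globin share, and 17.8, 110 and 290 CPM in the homozygous ones, and for gata1a 7.65, 54.3 and 112 CPM, and 9.90, 71.1 and 97.8 CPM.

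Levels of si:ch211-11n16.3 and pmaip1 were highest in these intermediate cells in both libraries. The unnamed gene si:ch211-11n16.3 stood at 144 CPM under 0.1% globin, at 1603 and 1052 CPM in the 2 groups of intermediate cells and at 210 CPM in low globin members of the heterozygous library. In the homozygous library it stood at 77.52, 1094 and 2053 CPM and at 251 CPM. The pro-apoptotic gene pmaip1 stood at 12.5, 115 and 173 CPM before 140 CPM in low globin members (heterozygous), and at 10.9, 310 and 385 CPM before 308 CPM (homozygous). The gene ccng1, which encodes cyclin G1, stood at 675, 1467 and 1208 CPM, and at 547, 1030 and 1003 CPM in the 3 groups under the limit. No such peak was seen for id1, which stood at 2214 (heterozygous) and 2181 CPM (homozygous) over all other cells. In the groups of 0.5 to 1% and of low globin members id1 had 703 and 587 CPM (heterozygous) and 397 and 663 CPM (homozygous).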
